A study of Mus musculus and Homo sapiens with 41 samples.

Results

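Blood cell formation is steered by a small set of transcription factors and cell surface receptors, and 33 of them are described here by the amount of H2AK119ub at their promoters. The set holds 18 factors of stem and progenitor cells, 5 myeloid factors, 2 lymphoid factors, 3 erythroid and megakaryocyte factors and 5 receptors or surface proteins. The members were given as a list of gene symbols, and no value entered the rule, although earlier results of these data were known when the list was made. All 33 were found among the 21911 protein-coding genes of the mouse annotation, and all 33 upper-case symbols among the 20007 human genes. For each gene the H2AK119ub-covered length was summed over a window of 5 kb to each side of the annotated transcription start site (TSS), so a value is given in kb of listed peaks out of 10000 bases.

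H2AK119ub was mapped by CUT&Tag, an assay in which antibody-guided transposase cuts and labels nearby DNA in place, in 39 libraries of 13 groups with 3 libraries each. The HSPCs were lineage-negative, c-Kit+ bone marrow cells that were isolated with magnetic beads and cultured for 7 days with cytokines that included SCF, IL-3 and GM-CSF. They came from Tet2-/- or wild-type C57BL/6 mice of 6 to 8 weeks, and electroporation delivered the shRNA. The 3 HSPC groups were Tet2-/- cells with an shRNA against Mbd6 (KO shMbd6), Tet2-/- cells with a non-targeting shRNA (KO shNC) and wild-type cells with the non-targeting shRNA (WT shNC). The mouse embryonic stem cells (mESCs) were a Tet2-/- and a wild-type line kept in LIF, serum and the inhibitor pair called 2i. Their groups were KO siMbd6, KO siNsun2, KO siNC and WT siNC, transfected with siRNA, and untransfected KO and WT cells. K562, an established human erythroleukaemia line, was nucleofected with siRNA as TET2-/- (KO siMBD6, KO siNSUN2, KO siNC) or wild-type (WT siNC) cells. A further 2 libraries mapped BAP1, the deubiquitylase that removes the mark, in wild-type mESCs. TET2 oxidizes 5-methylcytosine, NSUN2 places 5-methylcytosine on RNA and MBD6 binds the BAP1 complex. No group carries MBD6 or NSUN2 depletion in wild-type cells, and the labels do not say whether libraries of a group came from separate cultures or animals, so the p-values below measure the spread between these libraries alone.

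H2AK119ub is written by the Polycomb complex PRC1 and is found at CpG-rich promoters of developmental regulators that are silent or poised. In embryonic stem cells the promoters of lineage regulators are well-known Polycomb targets, and many blood factors lose this repression as cells commit to the blood lineages in which they act. The mark is repressive, so its level at a gene reports neither the RNA of that gene nor its absence. For the same reason the libraries cannot check the targeted genes. The Mbd6 window held 0.450, 0.410 and 0.314 kb in KO shMbd6 HSPCs, 0 kb in the 3 KO shNC libraries, and 0.425, 0.324 and 0.493 kb in WT shNC HSPCs, and the Tet2 window held 0 kb in all 9 HSPC libraries.

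The values come from peak lists alone, so depth is unknown and a window at 0 may be unmarked or too thinly sequenced. The amount of listed H2AK119ub moved with the groups. It was 3.43 to 3.95 Mb per library in KO shMbd6 HSPCs, 0.648 to 0.681 Mb in KO shNC and 1.89 to 2.24 Mb in WT shNC. Peaks on the added Drosophila chromatin numbered 85 to 95 in KO shMbd6, 205 to 231 in KO shNC and 48 to 56 in WT shNC libraries. In mESCs the covered length was 2.36 to 5.64 Mb with siMbd6, 1.90 to 4.25 Mb with siNsun2 and 1.82 to 4.30 Mb with siNC in KO cells, against 10.0 to 17.0 Mb in WT siNC cells. Without transfection it was 11.55 to 16.85 Mb in KO and 9.665 to 16.2 Mb in WT mESCs. The part of library yield in the results below was not tested beyond the setting in which every library was scaled to the same covered length. The labelled cell types could not be checked by expression, and of 5 HSPC markers Kit and Flt3, both described below, were covered and Cd34, Ptprc and Ly6a were not. In HSPC libraries the windows of 5 myeloid, 3 lymphoid and 3 fibroblast markers were all at 0. Of 3 erythroid markers Hba-a1 alone was covered, in KO shMbd6 cells, where the 3 windows summed to at most 0.401 kb per library.

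The stretches that carry the HSPC results are shown first. Each is the run listed in all 3 libraries of the group named, or its middle 300 bases where it was longer, on the strand of the gene in mm10, with CG dinucleotides in capitals. Annotated untranslated bases were left out. CG dinucleotides are marked because promoters rich in them are the usual sites of PRC1. The Ikzf1, Cebpa, Nfe2 and Kit sequences were listed in every KO shMbd6 HSPC library. The Erg sequence was listed in every WT shNC HSPC library, and the Fli1 sequence, from a gene at 0 in HSPCs, in every WT siNC mESC library.
Ikzf1: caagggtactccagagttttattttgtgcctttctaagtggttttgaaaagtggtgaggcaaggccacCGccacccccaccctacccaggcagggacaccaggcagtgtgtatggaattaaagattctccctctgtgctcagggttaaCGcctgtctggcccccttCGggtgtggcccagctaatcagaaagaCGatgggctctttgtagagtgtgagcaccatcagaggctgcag
Cebpa: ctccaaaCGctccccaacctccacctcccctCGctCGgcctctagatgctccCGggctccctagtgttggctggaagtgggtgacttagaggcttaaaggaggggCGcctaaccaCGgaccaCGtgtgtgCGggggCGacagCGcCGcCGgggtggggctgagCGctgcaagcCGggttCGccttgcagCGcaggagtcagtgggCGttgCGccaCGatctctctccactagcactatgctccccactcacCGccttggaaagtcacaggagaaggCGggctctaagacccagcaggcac
Nfe2: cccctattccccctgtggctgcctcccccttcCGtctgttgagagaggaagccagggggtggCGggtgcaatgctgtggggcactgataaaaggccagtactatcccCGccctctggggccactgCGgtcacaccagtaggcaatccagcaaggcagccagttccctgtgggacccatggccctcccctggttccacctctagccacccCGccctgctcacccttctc
Kit: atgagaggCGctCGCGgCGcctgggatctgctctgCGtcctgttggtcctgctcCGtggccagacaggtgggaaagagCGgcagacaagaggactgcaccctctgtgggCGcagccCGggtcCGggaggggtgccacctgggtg
Erg: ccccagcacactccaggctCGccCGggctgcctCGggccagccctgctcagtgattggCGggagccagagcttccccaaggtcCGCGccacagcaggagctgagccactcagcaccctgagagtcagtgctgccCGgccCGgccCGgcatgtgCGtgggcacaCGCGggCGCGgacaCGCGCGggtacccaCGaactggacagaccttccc
Fli1: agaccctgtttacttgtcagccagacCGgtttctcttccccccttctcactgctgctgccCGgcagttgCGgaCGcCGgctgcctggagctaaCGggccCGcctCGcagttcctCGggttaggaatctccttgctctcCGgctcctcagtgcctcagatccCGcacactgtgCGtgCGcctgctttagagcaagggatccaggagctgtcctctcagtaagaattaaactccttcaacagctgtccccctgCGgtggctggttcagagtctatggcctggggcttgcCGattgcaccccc
The sequences differ in CG content. Cebpa (chr7:35118901-35119200, plus strand) ends 93 bases upstream of its TSS, within the gene model Gm45091, and holds 21 CG dinucleotides in 300 bases, a number that 22.6% of equally long stretches upstream of all mouse genes reach. Kit (chr5:75575052-75575195, plus strand) starts at the first base of the Kit coding sequence, 136 bases downstream of the TSS, and holds 10 in 144 bases (33.8%). Nfe2 (chr15:103258404-103258631, minus strand) is intergenic and holds 5 in 228 bases (62%). Ikzf1 (chr11:11684767-11685002, plus strand) lies within the gene model Gm11999 and holds 4 in 236 bases (68.1%). Both stretches are shown up to their TSS, while the listed runs go on to 138 (Ikzf1) and 155 (Nfe2) bases downstream. Erg (chr16:95585470-95585680, minus strand) starts 913 bases into its own gene, in an intron, and holds 18 in 211 bases (19.7%). Fli1 (chr9:32540351-32540650, minus strand) is also intronic, 2211 to 2510 bases downstream of its TSS, and holds 15 in 300 bases (35.9%). The stretches shown thus lay in CG-poor as well as CG-rich sequence.

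In HSPCs the mark was listed at few of these genes. Of the 33 windows, 14 (42.4%) were covered in at least 1 KO shMbd6 library, 3 (9.09%) in at least 1 KO shNC library and 7 (21.2%) in at least 1 WT shNC library. The same shares of all windows were 33.8%, 4.8% and 20.8%. In at least 2 of the 3 libraries it was 8 genes (24.2%) in KO shMbd6 cells, 1 gene (3.03%) in KO shNC cells and 2 genes (6.06%) in WT shNC cells. Over all windows the share was 23.0% in KO shMbd6, 2.07% in KO shNC and 11.9% in WT shNC cells. The covered length summed over the 33 genes averaged 4.74 ± 1.13 kb in KO shMbd6, 0.563 ± 0.494 kb in KO shNC and 1.78 ± 0.782 kb in WT shNC HSPCs (SD, n = 3 each). The heat map of HSPC libraries shows that the KO shNC columns are nearly empty.

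**Figure D1:**
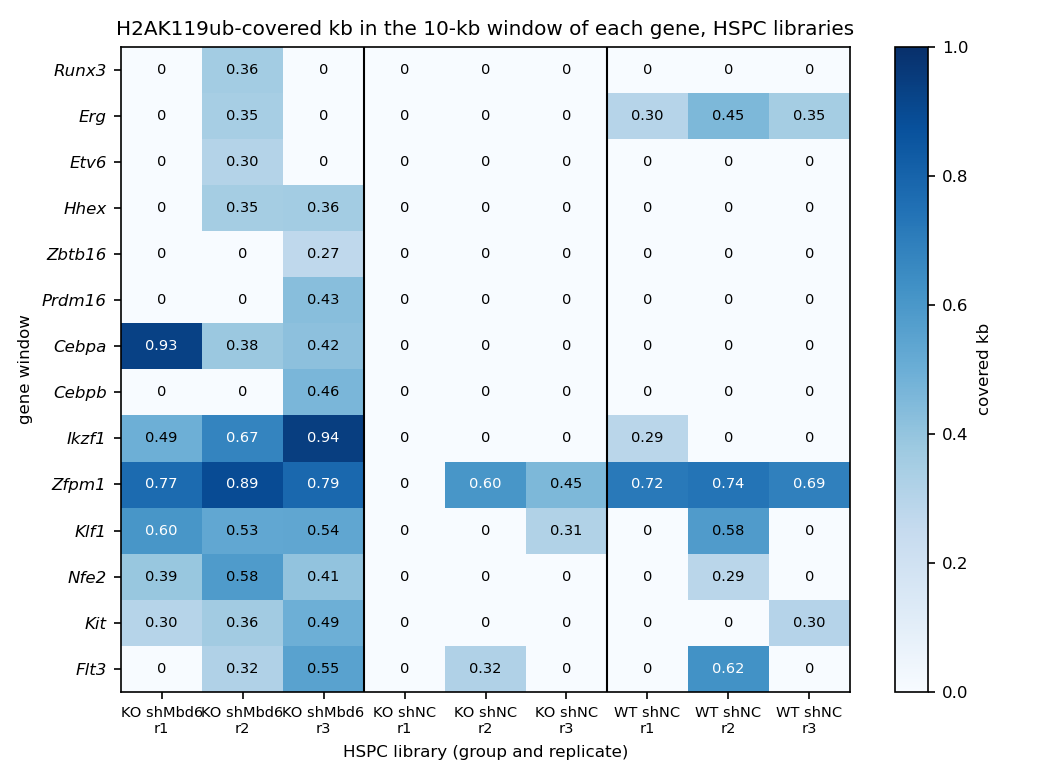
H2AK119ub-covered kb per 10-kb window for the 14 genes covered in any HSPC library. Rows are genes ordered by role, columns are the 9 libraries with KO shMbd6 left, KO shNC in the middle and WT shNC right, and colour and number give the covered kb. Zfpm1 was covered in 8 of 9 libraries, and KO shNC replicate 1 was at 0 for every gene.

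Mbd6 knockdown in Tet2-/- HSPCs asks whether loss of this BAP1 partner restores the mark. After the knockdown, covered length was called higher at 6 genes from 4 of the 5 roles. They were the lymphoid factor Ikzf1, the myeloid factor Cebpa, the erythroid and megakaryocyte factors Nfe2, Klf1 and Zfpm1, and the receptor Kit. Their differences ran from 0.384 to 0.703 kb. Covered kb were compared with limma over all windows listed in at least 3 HSPC libraries, with a Benjamini-Hochberg adjusted p under 0.05 as the call. Of 4242 such windows 72% were called higher and 0.0943% lower, and of the 8 genes of the set that passed the filter 6 were called higher and none lower. That share is about the background. A window could pass the filter through the KO shMbd6 group alone, so the 8 are no sample of the 33. All 6 genes called were listed in every KO shMbd6 library, which is enough to pass. Their p-values are therefore no independent support for a change. The median difference was 0.455 kb over the 8 genes and 0.404 kb over all windows tested. Spike-in peaks were fewer, 85 to 95 in KO shMbd6 against 205 to 231 in KO shNC libraries, and their part in the differences was not tested.

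Ikzf1 encodes Ikaros, a zinc finger factor needed for lymphoid development. Its window held 0.493, 0.672 and 0.944 kb in KO shMbd6 HSPCs, against 0 kb in all 3 KO shNC libraries. WT shNC libraries held 0.289, 0 and 0 kb. All KO shMbd6 values lay above all values of the other groups. The difference between KO shMbd6 and KO shNC was 0.703 ± 0.122 kb (SE, limma adjusted p = 0.00151). Where a group is at 0 in all its libraries, as here, it adds no spread to the model and the p can be too small.

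Cebpa encodes C/EBPα, which commits progenitors to the granulocyte and monocyte lineages. It held 0.931, 0.380 and 0.417 kb in KO shMbd6 HSPCs, and 0 kb in all KO shNC and all WT shNC libraries. The difference from KO shNC was 0.576 ± 0.131 kb (SE, limma adjusted p = 0.00545). Replicate 1 held more than the other KO shMbd6 libraries together. Cebpa passed the filter through the KO shMbd6 group alone, so it had to differ, and its p is no support for a change. The remaining myeloid factors were close to empty in HSPCs. Cebpb, a partner of C/EBPα induced in emergency granulopoiesis, was covered in 1 library (0.461 kb, KO shMbd6 replicate 3), and its window also holds the TSS of Tmem189. Spi1, which encodes PU.1, Irf8 and Cebpe were at 0 in all 9 HSPC libraries.

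The erythroid and megakaryocyte factors were all called. Nfe2 encodes a subunit of NF-E2, a factor required for platelet formation. It held 0.388, 0.583 and 0.406 kb in KO shMbd6 HSPCs and 0 kb in the KO shNC libraries, with 0, 0.287 and 0 kb in WT shNC. Its difference was 0.459 ± 0.0911 kb (SE, limma adjusted p = 0.00302), and the KO shMbd6 values overlapped those of no other HSPC group. Klf1, the erythroid Krüppel-like factor that activates the adult beta-globin gene, held 0.605, 0.528 and 0.535 kb in KO shMbd6 HSPCs, against 0, 0 and 0.313 kb in KO shNC. WT shNC libraries held 0, 0.580 and 0 kb, so that 1 of them lay within the KO shMbd6 range. The Klf1 difference from KO shNC was 0.452 ± 0.160 kb (SE, limma adjusted p = 0.0316). Its call was lost without KO shNC replicate 1 (adjusted p = 0.0949), without KO shNC replicate 2 (0.0934) and without KO shMbd6 replicate 1 (0.0581).

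Zfpm1 encodes FOG1, the cofactor of GATA1, and was the gene most often covered in HSPCs. It held 0.770, 0.892 and 0.785 kb in KO shMbd6 cells, 0, 0.602 and 0.454 kb in KO shNC cells, and 0.716, 0.736 and 0.688 kb in WT shNC cells. The KO shMbd6 values lay above both other groups, and the KO shNC values lay below both. The difference between KO shMbd6 and KO shNC was 0.464 ± 0.136 kb (SE, limma adjusted p = 0.0149). When libraries were scaled to equal covered length, 3 of the 6 calls were left, those of Ikzf1 (0.400, adjusted p = 0.0172), Nfe2 (0.262, 0.0354) and Cebpa (0.340, 0.0274), while Zfpm1 turned to -0.65 and Klf1 to -0.015, neither called. With that scaling 1183 of all windows were higher and 204 lower, in place of 3055 and 4. Ikzf1, Nfe2 and Cebpa were at 0 in all KO shNC libraries, and scaling leaves a 0 at 0. The direction of these 3 differences was therefore fixed, and their calls under scaling are no independent support for a change.

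Among the receptors, Kit was called and Flt3 was not. Kit is the receptor for stem cell factor, the surface protein by which these cells were selected. Its window held 0.298, 0.361 and 0.493 kb in KO shMbd6 HSPCs and 0 kb in all KO shNC libraries, with 0, 0 and 0.304 kb in WT shNC. The difference from KO shNC was 0.384 ± 0.0925 kb (SE, limma adjusted p = 0.00664). Flt3, the receptor for FLT3 ligand on multipotent and lymphoid progenitors, held 0, 0.317 and 0.551 kb in KO shMbd6, 0, 0.320 and 0 kb in KO shNC, and 0, 0.622 and 0 kb in WT shNC HSPCs. The 3 groups overlapped, and the difference of 0.183 ± 0.201 kb was not called (limma adjusted p = 0.398). Cd34, Csf1r and Csf3r, which encode a stem cell surface sialomucin and the receptors for M-CSF and G-CSF, were at 0 in all HSPC libraries.

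Of the 18 stem and progenitor factors, 6 were listed in at least 1 KO shMbd6 library, none in any KO shNC library and 1 in the WT shNC libraries. Beside these counts, at least 1 library covered 33.8% of all windows in KO shMbd6, 4.8% in KO shNC and 20.8% in WT shNC HSPCs. Hhex, a homeobox factor of early blood and B cell progenitors, held 0, 0.352 and 0.359 kb in KO shMbd6 cells. Erg held 0, 0.347 and 0 kb there, and its difference from KO shNC was 0.116 ± 0.0973 kb (SE, limma adjusted p = 0.278). Runx3 (0.359 kb) and Etv6 (0.305 kb) were covered in KO shMbd6 replicate 2 alone, and Prdm16 (0.428 kb) and Zbtb16 (0.273 kb) in replicate 3 alone. Hhex, Runx3, Etv6, Prdm16 and Zbtb16 were too rarely covered for the test. At the gene TSS the other 12 stem and progenitor factors, with Runx1, Tal1, Lmo2, Meis1, Fli1, Gfi1 and Myb among them, were at 0 in all 9 HSPC libraries. Peaks at later starts are given below.

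Loss of Tet2 in HSPCs carrying the control shRNA was set against wild type. Erg, an ETS factor needed to maintain haematopoietic stem cells, was the 1 gene of the set called lower. Its window was at 0 kb in all 3 KO shNC libraries, against 0.299, 0.454 and 0.354 kb in the WT shNC libraries, and the difference was -0.369 ± 0.0973 kb (SE, limma adjusted p = 0.0247). The WT shNC libraries, where Erg was high, alone met the filter, so this p is no independent support for a change. Of all 4242 windows 22.7% were called lower and 0.0236% higher, and of the 8 genes tested 1 was called lower and none higher. At an unadjusted p under 0.05, 2 genes were lower, the other being Zfpm1, with 0, 0.602 and 0.454 kb in KO shNC against 0.716, 0.736 and 0.688 kb in WT shNC (-0.361 ± 0.136 kb, limma adjusted p = 0.104). The median difference was -0.0985 kb over the 8 genes and -0.21 kb over all windows. The KO shNC libraries are the same in this comparison and in that of Mbd6 knockdown, so the 2 sets of differences are not independent. The Erg call was lost with 4 of the 6 libraries compared: the limma adjusted p was 0.0704 without KO shNC replicate 1, 0.0683 without replicate 2, 0.0688 without replicate 3, and 0.0699 without WT shNC replicate 2. Scaling to equal covered length kept it (-0.389, limma adjusted p = 0.00186). Scaling leaves the KO shNC libraries at 0, so the direction was fixed and the kept call is no independent support either.

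Of 50 further haematopoietic genes, 15 passed the filter in HSPCs. After Mbd6 knockdown 12 of the 15 were called higher and none lower, near the 72% of all windows called higher. Bmi1, a PRC1 subunit that sustains stem cell self-renewal, held 0, 1.06 and 0.935 kb in KO shMbd6 HSPCs and 0 kb in KO shNC. Id2, an inhibitor of basic helix-loop-helix factors, held 0.494, 0.653 and 0.483 kb in KO shMbd6 and 0 kb in KO shNC, against 0.494, 0.527 and 0.522 kb in WT shNC. Irf4, a lymphoid factor, and Kitl, the ligand of Kit, differed by 0.531 and 0.523 kb between KO shMbd6 and KO shNC, and Kitl, at 0 in all other HSPC libraries, passed the filter through KO shMbd6 alone. In KO shNC against WT shNC HSPCs 3 of the 15 were called lower, a share near the 22.7% of all windows called lower. They were Id2 (-0.514 kb), its relative Id3 (-0.400 kb) and Stat5a (-0.314 kb), which transmits signals of cytokine receptors.

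In HSPCs, 19 of the 33 genes were at 0 in every library and 14 were not. The mESC libraries covered 25 genes, and 13 of these were also covered in HSPCs. Runx3 was the 1 gene covered in HSPCs alone, 12 genes were covered in mESCs alone, and 7 (Runx1, Runx2, Lmo2, Mecom, Gfi1b, Csf1r and Csf3r) in neither. Of all 21911 mouse windows, 7602 were covered in both, 187 in HSPCs alone, 8027 in mESCs alone and 6095 in neither. Runx3 was covered in 1 HSPC library, and mESC libraries listed peaks at its later transcript starts. All 13 shared genes had bases listed in both cell types. Pooled over libraries, 6370 bases were shared, out of 7921 covered in HSPCs and 26478 covered in mESCs. All HSPC bases of Erg, Ikzf1, Klf1, Hhex, Cebpb and Prdm16 lay within mESC peaks.

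**Figure D2:**
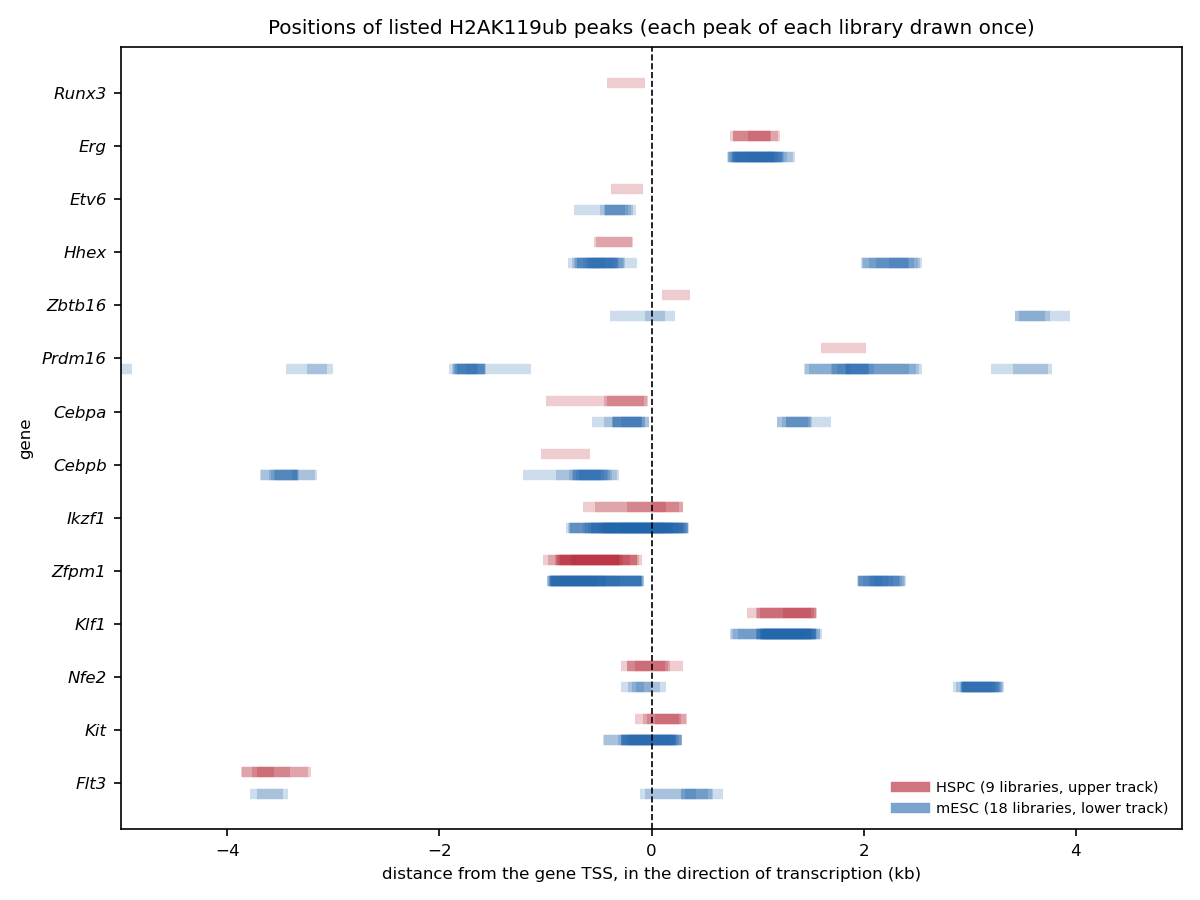
Positions of listed H2AK119ub peaks at the 14 genes covered in HSPCs, as distance from the TSS in kb along the gene. HSPC peaks are drawn red and above, mESC peaks blue and below, 1 bar per peak and library, darker where more libraries overlap. Ikzf1 and Kit peaks cross the TSS in both cell types, Klf1 and Erg peaks lie downstream in both, and Nfe2 peaks lie at the TSS in HSPCs and mostly about 3 kb downstream in mESCs.

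Positions were close between cell types at most genes. Ikzf1 peaks spanned -650 to 295 bases from the TSS in HSPCs and -807 to 348 bases in mESCs. Erg peaks lay 738 to 1211 bases downstream in HSPCs and 715 to 1355 bases in mESCs, and Klf1 peaks 899 to 1559 and 741 to 1608 bases. Zfpm1 peaks in HSPCs lay 1028 to 92 bases upstream, a stretch of which 95.4% was also listed in mESCs. Nfe2 differed: its 4 HSPC peaks all spanned the TSS, whereas 2 of 14 mESC peaks did. Flt3 peaks in HSPCs lay 3872 to 3212 bases upstream. In mESCs Flt3 peaks lay there in KO siMbd6 replicate 3 and KO siNsun2 replicate 3 alone. The other mESC peaks of Flt3 lay near the TSS, from -105 to 676 bases. The member peaks were of modest strength. Their −log10 q averaged over the peak was 2.31 to 8.92 in KO shMbd6 HSPCs with a median of 3.74, beside 4.01 for all peaks of these libraries.

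In mESCs coverage of the set differed between the groups. In at least 2 of 3 libraries, 10 genes (30.3%) were covered in KO siMbd6, 7 (21.2%) in KO siNsun2 and 5 (15.2%) in KO siNC cells, against 20 (60.6%) in WT siNC cells. In untransfected cells it was 22 genes (66.7%) in KO and 23 (69.7%) in WT. Over all windows the share was 16.2% in KO siMbd6, 11% in KO siNsun2, 12.0% in KO siNC and 55.6% in WT siNC cells, and 55.8% in untransfected KO and 55.7% in untransfected WT cells. Ikzf1 was covered in all 18 mESC libraries, with 0.627 kb as the lowest and 1.12 kb as the highest value. Cd34, at 0 in HSPCs, was covered in 17 of 18.

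**Figure D3:**
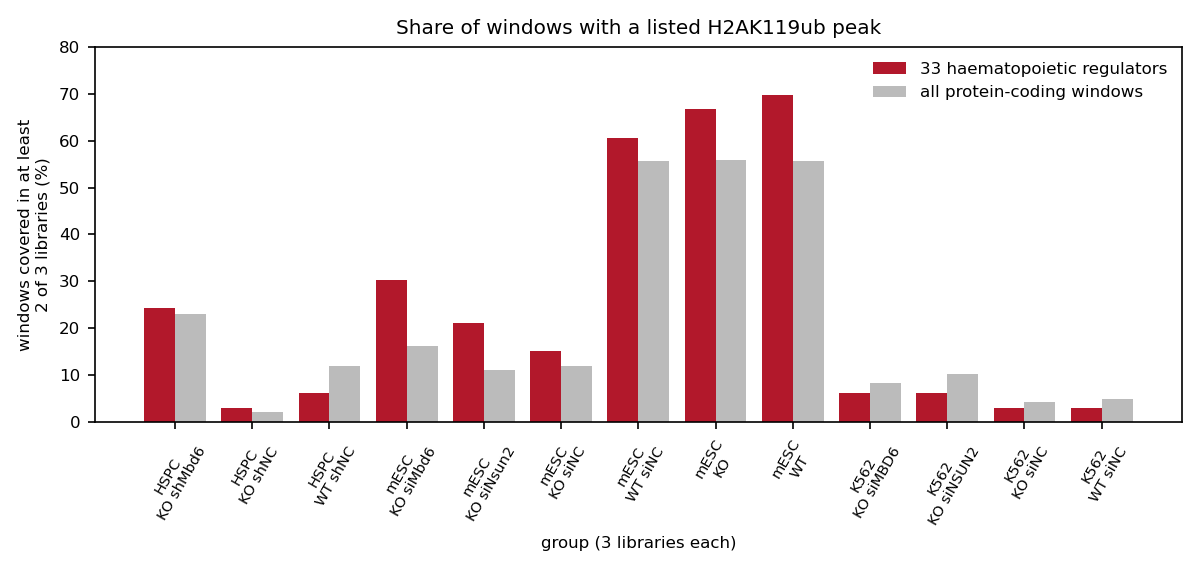
Share of windows (%) with a listed H2AK119ub peak in at least 2 of 3 libraries, for the 33 haematopoietic regulators (red) and all protein-coding windows (grey), in 13 groups of 3 libraries. The 3 groups of wild-type siNC and untransfected mESCs exceed 55% in both sets, and the K562 groups stay at 1 or 2 of 33 genes.

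In siNC-transfected mESCs 8 of the 18 genes tested were called lower in KO than in WT cells, and none higher. Over all 10756 windows 71.9% were called lower and 0.214% higher, so the share called in the set was below the background. The median difference was -0.33 kb over the 18 genes and -0.42 kb over all windows. The genes called lower were the stem and progenitor factors Prdm16, Hhex, Fli1 and Erg, the erythroid and megakaryocyte factors Zfpm1 and Nfe2, the receptor Kit and the myeloid factor Cebpa. Zfpm1 held 0, 0.513 and 0 kb in KO siNC mESCs, against 0.862, 1.30 and 1.14 kb in WT siNC mESCs (-0.931 ± 0.186 kb, limma adjusted p = 0.00149). Prdm16, a zinc finger factor that maintains stem cells, held 0, 0.303 and 0 kb in KO siNC against 0.628, 0.837 and 1.29 kb in WT siNC mESCs (-0.816 ± 0.282 kb, limma adjusted p = 0.0257).

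Hhex, Fli1, Erg, Kit, Nfe2 and Cebpa were at 0 in all 3 KO siNC libraries. Each was listed in all 3 WT siNC libraries, so that group alone could meet the filter. Their p-values are therefore no independent support for a loss. In WT siNC mESCs Hhex held 0.373, 0.906 and 0.700 kb (difference -0.66 kb, limma adjusted p = 6.8e-04), and Kit held 0.697, 0.506 and 0.607 kb (-0.603 kb, 0.0192). Fli1, an ETS factor of stem cells and megakaryocytes, held 0.569, 0.539 and 0.648 kb there (-0.585 kb, limma adjusted p = 1.8e-05), and Erg held 0.530, 0.465 and 0.641 kb (-0.545 kb, 0.0027). Ikzf1 was not among the 8. It held 0.706, 0.735 and 0.973 kb in KO siNC against 0.910, 0.989 and 0.758 kb in WT siNC mESCs, and the groups overlapped (-0.081 ± 0.134 kb, limma adjusted p = 0.586). When weaker peaks, with a −log10 q under 5, were left out, Ikzf1 was called lower (-0.641 kb, limma adjusted p = 0.0308), and of the 8 genes Kit and Zfpm1 alone kept their call. Of the 50 further genes 34 were tested and 22 were called lower, Bcl11b (-0.723 kb) and Csf2ra (-0.698 kb) by most. The listed length of KO siNC libraries was 1.82 to 4.30 Mb against 10.0 to 17.0 Mb in WT siNC, and with libraries scaled to equal covered length none of the 8 was called. With that scaling 3852 of all windows were lower and 284 higher, in place of 7732 and 23. The call of Prdm16 was lost without WT siNC replicate 3 (adjusted p = 0.0771) or KO siNC replicate 1 (0.0706) or 3 (0.0658), and that of Cebpa (-0.406 kb, 0.0223) without WT siNC replicate 2 (0.0913) or 3 (0.0743) or KO siNC replicate 1 (0.0525).

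Without transfection, none of the 24 genes tested was called between KO and WT mESCs. Of 12820 windows limma called 0.0234% higher and 0% lower, and no gene of the set reached even an unadjusted p under 0.05. The smallest p belonged to Meis1, a TALE homeobox factor of stem cells, with 0.680, 0.844 and 0.694 kb in KO and 0, 0.798 and 0.432 kb in WT mESCs (0.329 ± 0.200 kb, limma adjusted p = 0.957). Flt3 (-0.258 ± 0.182 kb) and Cebpa (0.197 ± 0.142 kb) followed. Standard errors over the 24 genes ran up to 0.398 kb. A call needs a difference of several standard errors, so differences well above that size could be missed at single genes.

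Knockdown of Mbd6 or Nsun2 in Tet2-/- mESCs left no gene called. With siMbd6 0 of 18 genes were called and 0 were under an unadjusted p of 0.05, while limma called 0.158% of windows higher and 0.0186% lower. Meis1 held 0.276, 0 and 0.562 kb in KO siMbd6 mESCs and 0 kb in KO siNC (0.279 ± 0.138 kb, limma adjusted p = 1.0). Erg (0.233 ± 0.120 kb) and Kit (0.317 ± 0.195 kb) came next, also from 0 kb in KO siNC cells. With siNsun2 0 of 18 genes were called, again with 0 at an unadjusted p under 0.05, beside 0% of windows higher and 0.0186% lower. Cebpb held 0 kb in all KO siNsun2 libraries, against 0, 0.426 and 0.536 kb in KO siNC (-0.321 ± 0.149 kb, limma adjusted p = 1.0). Zbtb16 (0.194 ± 0.132 kb) and Fli1 (0.0773 ± 0.0594 kb) followed.

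**Figure D4:**
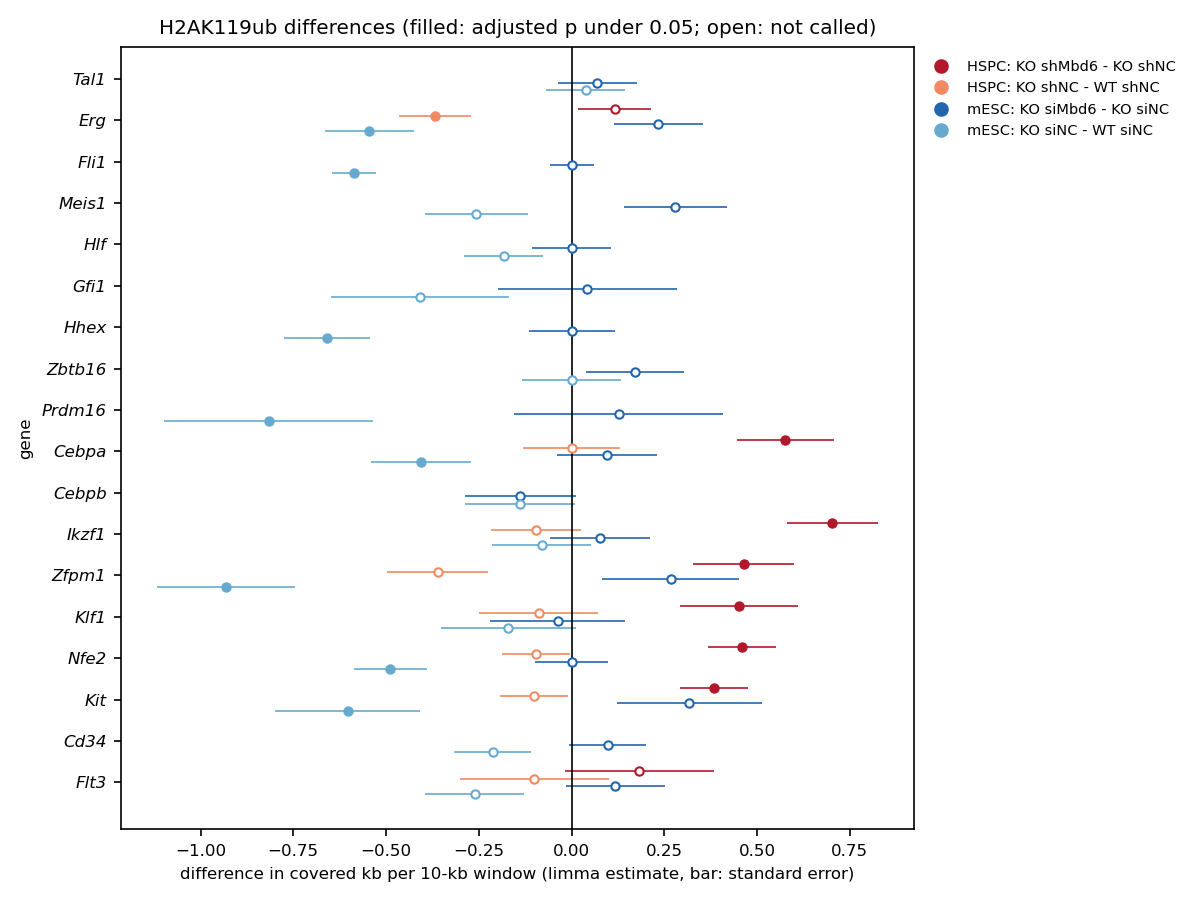
Differences in covered kb per window (x axis, limma estimate with its standard error) for the 18 genes tested in mESCs, of which 8 were also tested in HSPCs. Red: KO shMbd6 minus KO shNC HSPCs. Orange: KO shNC minus WT shNC HSPCs. Dark blue: KO siMbd6 minus KO siNC mESCs. Light blue: KO siNC minus WT siNC mESCs. Filled points were called at an adjusted p under 0.05, and 6 red points lie between 0.384 and 0.703 kb.

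Whether the effects differed between HSPCs and mESCs was tested as an interaction over the 21 libraries of both experiments. For the Tet2 effect the interaction was called, less negative in HSPCs, at Fli1 (0.585 ± 0.0676 kb, limma adjusted p = 3.9e-06), Hhex (0.660 ± 0.153 kb, 0.00237) and Nfe2 (0.393 ± 0.136 kb, 0.0268). That made 3 of 18 genes higher and none lower, beside 44.8% of 11514 windows higher and 0.617% lower. Fli1 was at 0 in all HSPC libraries and Hhex in both groups compared there, so no loss could be seen in HSPCs, these 2 differences restate the mESC values, and they do not show that the Tet2 effect differed between the cell types. Nfe2 was at 0 in KO shNC and low in WT shNC HSPCs, so a loss as large as in mESCs could not be seen. Its call does not show a difference between the cell types either. The Nfe2 call was lost without WT siNC replicate 3 (adjusted p = 0.0996) and without WT shNC replicate 1 (0.0675) or 3 (0.0665), and with windows of 2 kb to each side its difference was 0.0123 kb (0.939). Its peaks lie at different places in the 2 cell types, as given above.

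For the Mbd6 effect the interaction was called, higher in HSPCs, at Nfe2 (0.459 ± 0.136 kb, limma adjusted p = 0.0426) and Ikzf1 (0.627 ± 0.188 kb, 0.0452). That made 2 of 18 genes higher and none lower, near the 9.61% of windows higher and 0.13% lower. Nfe2 was at 0 in all KO siMbd6 and KO siNC mESC libraries, so its value restates the HSPC difference. Ikzf1 held 0.891, 0.635 and 1.12 kb in KO siMbd6 and 0.706, 0.735 and 0.973 kb in KO siNC mESCs, so it was already covered before the knockdown there. In HSPCs both genes were at 0 in KO shNC and listed in every KO shMbd6 library. Neither call therefore shows that the Mbd6 effect differed between the cell types. Both calls were close to the threshold. Without single libraries the adjusted p of Ikzf1 ran from 0.0192 to 0.117 and that of Nfe2 from 0.0412 to 0.0992. Ikzf1 was called without KO siNC replicate 1, KO siMbd6 replicate 3 or KO shMbd6 replicate 1, and Nfe2 without KO shMbd6 replicate 1 or 3, while every other omission lost the call.

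Where the covered stretch was not at the annotated start, the window missed it. Runx1, required for the first definitive blood stem cells, was at 0 at its gene TSS in all mouse libraries. A downstream promoter lies 128821 bases downstream, and with the windows of all annotated transcript starts added Runx1 held 0, 0.867 and 0.786 kb in KO shMbd6 HSPCs and 0 kb in all KO shNC and WT shNC libraries. The KO shMbd6 values overlapped the others through replicate 1. In mESCs it then held 0, 0.553 and 0 kb with siMbd6, 0.410, 0.299 and 0 kb with siNC in KO cells, and 0.224, 0.433 and 0.455 kb in WT siNC cells. Runx2, the related factor of bone formation, was covered in mESCs alone at later starts, as were Lmo2, which bridges TAL1 and GATA factors, the repressor gene Gfi1b and Mecom, which encodes EVI1. Near later starts, HSPC peaks were also listed at Meis1 in KO shMbd6 replicates 1 and 2 and WT shNC replicate 3. Tal1 had such a peak in KO shMbd6 replicate 3.

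**Figure D5:**
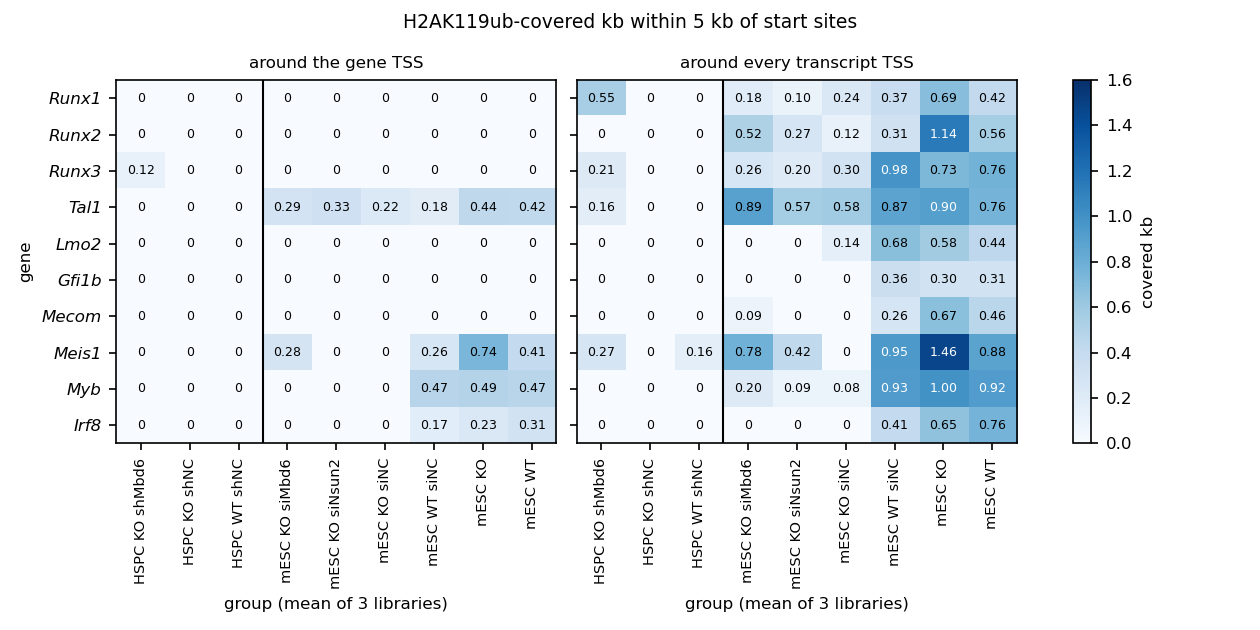
Mean H2AK119ub-covered kb (colour and number, mean of 3 libraries) of 10 genes in the 3 HSPC and 6 mESC groups, within 5 kb of the gene TSS (left panel) and within 5 kb of every annotated transcript TSS (right panel). Runx1 in KO shMbd6 HSPCs is at 0 in the left panel and at 0.55 kb in the right.

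With every transcript start counted, 2 genes remained at 0 in all mouse libraries, Csf1r and Csf3r, and 16 in all HSPC libraries. The number of genes called lower in KO siNC against WT siNC mESCs then became 13, with Gfi1b (-0.357 kb, limma adjusted p = 4.3e-05), Lmo2 (-0.537 kb, 0.00423), Runx3 (-0.673 kb, 0.00607), Myb (-0.845 kb, 0.0179) and Meis1 (-0.946 kb, 9.1e-04) added. More genes passed the filter than the 18 tested at the gene TSS, where limma called 71.9% of all windows lower. The larger number is therefore not by itself a result about the set. Lmo2 held 0, 0.431 and 0 kb in KO siNC and 0.815, 0.421 and 0.805 kb in WT siNC cells. Gfi1b was at 0 in KO siNC and held 0.293, 0.448 and 0.329 kb in WT siNC cells. Each of the added genes was listed in every WT siNC library, which is enough to pass the filter. Gfi1b passed through that group alone. Their p-values are therefore no independent support for a loss. In HSPCs the same 6 genes were called after Mbd6 knockdown, and Runx1 was too rarely covered to be tested.

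CG content around the TSS went with coverage. In the kb around the TSS the median number of CG dinucleotides was 78 over the 13 genes covered in both cell types, 50.5 over the 12 covered in mESCs alone and 11 over the 7 covered in neither, beside 63, 44 and 8 over all windows so classed. These numbers are a description over genes, which are not replicates. Klf1 stood apart with 5 CG dinucleotides at its TSS, its peaks lying about 1 kb downstream, as given above. Cebpb (145), Zfpm1 (135) and Hhex (123) had the most.

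In K562 cells few windows were covered, in the set as over all genes. The 33 human windows were covered in at least 2 of 3 libraries at 2 genes in KO siMBD6, 2 in KO siNSUN2, 1 in KO siNC and 1 in WT siNC cells, and 26 were at 0 in all 12 libraries. The set's shares were 6.06% in each of the 2 knockdown groups and 3.03% in KO siNC and in WT siNC cells, beside 8.34% of all windows in KO siMBD6, 10.3% in KO siNSUN2, 4.25% in KO siNC and 4.89% in WT siNC cells. KLF1 was covered most often, with 0, 0.39 and 0.258 kb in KO siMBD6, 0.448, 0.377 and 0.399 kb in KO siNSUN2, 0.459, 0.517 and 0.342 kb in KO siNC, and 0.325, 0.304 and 0 kb in WT siNC cells. These peaks lay 4128 to 3566 bases upstream of KLF1, over the TSS of the neighbour GCDH at -3959 bases, so they cannot be assigned to KLF1. ZFPM1 held 0.356, 0 and 0 kb in KO siMBD6, 0.414, 0.409 and 0 kb in KO siNSUN2, 0 kb in KO siNC and 0, 0.379 and 0 kb in WT siNC cells, 571 to 97 bases upstream of its TSS, the side on which mouse Zfpm1 was covered in HSPCs. Human RUNX1 is annotated with a first start far upstream of its known promoters, and its window was at 0.

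These 2 genes were the ones tested in K562, and neither was called. Of 2457 windows limma called 0.0814% higher and 0.0407% lower for TET2 loss, 0% in either direction for MBD6 knockdown and 0% in either direction for NSUN2 knockdown. No gene of the set was under an unadjusted p of 0.05 in any of the 3 comparisons, while 264 and 362 of all windows were in those for MBD6 and NSUN2. For TET2 loss KLF1 differed by 0.230 ± 0.113 kb (SE, limma adjusted p = 0.742) and ZFPM1 by -0.126 ± 0.139 kb. For MBD6 knockdown KLF1 differed by -0.223 ± 0.113 kb (0.444), and for NSUN2 knockdown ZFPM1 by 0.274 ± 0.139 kb (0.341). In wild-type mESCs the 2 BAP1 libraries listed no peak in any of the 33 windows, where 1.05% of all windows held one in at least 1 library, so BAP1 at these genes was not detectable from the lists.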

How the data were processed

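CUT&Tag libraries were prepared by the authors with Drosophila chromatin added as a spike-in, whose scaling does not enter the peak lists. Per the labels and the study's methods, reads were trimmed with Trimmomatic 0.39, aligned with Bowtie2 2.4.1 to mm10 or hg38 with the Drosophila genome added, cleared of duplicates with Picard, and passed to MACS2 for broad peaks in each library alone. The 41 deposited lists give coordinates, a score that is 10 times the −log10 q, the fold enrichment over local background as a ratio, and the −log10 p and −log10 q of each peak. The deposited lists hold no read numbers, so depth is unknown and no counting interval can be given.

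Peaks were merged within a library and their bases summed within 5 kb of each protein-coding TSS (GENCODE vM21 and v44). Summing was tested against bedtools 2.31.1, and the model on simulated data. Covered kb were fitted with limma 3.58.1 in R 4.3.3, with 1 model for all groups of an experiment (HSPC, siRNA-treated mESC, untransfected mESC or K562), over windows covered in at least 3 of its libraries, and p-values were adjusted over all these windows by Benjamini-Hochberg with a threshold of 0.05. The 2 interactions were fitted over HSPC and siRNA-treated mESC libraries together. Groups came from the labels. The 33 genes, the 50 further haematopoietic genes and the marker lists were chosen with earlier results of these data known, so none of their counts is independent evidence. Values per library are given for genes called in an HSPC comparison and for up to 6 genes per direction, by largest difference, in other comparisons. Where no gene was called, the 3 with the smallest p are named, and at most 4 called genes were taken from the further list. Genes at particular places (later starts, shared windows, Ikzf1 and Cd34 in mESCs) were chosen after their values were seen.

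The 9 alternatives were a log2(covered kb + 0.1) scale, flanks of 2 kb, all transcript TSSs, peaks with a −log10 q of at least 5, no filter, libraries scaled to equal covered length, only the groups compared, the replicate number as a block, and each replicate left out in turn. The replicate numbers were not taken as pairs, since the correlations of same-numbered deviations ran from -0.037 to -0.012 in HSPCs, from 0.00839 to 0.239 in mESCs and from -0.024 to 0.0275 in K562. In every mESC comparison replicate 1 had the highest correlation, and it had the lowest covered length in every mESC group. Whether replicate 1 marks a shared batch there was not tested, and counts with the replicate number as a block are given below. Sequence was read from mm10, and CG dinucleotides were counted in it. Python 3.11.15 with NumPy 2.4.6, pandas 2.3.3 and matplotlib 3.10.9 was used.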

Additional observations from a re-analysis of the deposited data

Results flagged for a closer look

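The 5 effects for which the interaction between HSPCs and mESCs was called are given here as values. The Tet2 effect (KO minus WT, both with control RNA) was less negative in HSPCs than in mESCs by 0.585 kb at Fli1, by 0.660 kb at Hhex and by 0.393 kb at Nfe2. The Mbd6 effect (knockdown minus control in KO cells) was larger in HSPCs by 0.459 kb at Nfe2 and by 0.627 kb at Ikzf1. HSPC and mESC libraries differ in cell type, in shRNA against siRNA and in listed length, and these cannot be told apart. In the HSPC groups compared for Tet2 loss, Fli1 and Hhex were at 0 in all 6 libraries, so a loss could not be seen there, and their values restate the mESC differences and do not show that the effect differed between cell types. Nfe2 was at 0 in KO shNC and low in WT shNC HSPCs, so a loss as large as in mESCs could not be seen. Its Tet2 value does not show a difference between cell types either. In the mESC groups compared for Mbd6 knockdown, Nfe2 was at 0 in all 6 libraries and Ikzf1 was covered in all 6. Both were at 0 in KO shNC HSPCs, so their Mbd6 values do not show a difference between cell types either.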

How the results depend on the processing

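Of the values given for single genes, 117 kept direction and side of the threshold under the 8 alternatives that keep all libraries, 21 lost the threshold and 4 reversed. Scaling to equal covered length reversed Klf1 (-0.015) and Zfpm1 (-0.65) after Mbd6 knockdown in HSPCs and Nfe2 in the Tet2 interaction (-0.031), and peaks with a −log10 q of at least 5 reversed Ikzf1 in the Mbd6 interaction (-0.099). For genes called lower in KO shNC HSPCs the number became 0 with the stricter peaks and 0 to 1 without single libraries. For genes called higher after Mbd6 knockdown in HSPCs, 6 in the fit described, it became 1 with the stricter peaks (Zfpm1), 3 at equal covered length and 4 to 6 without single libraries, and the log2 scale lost Klf1 (limma adjusted p = 0.0666) and Zfpm1 (0.0895). For genes called lower in KO siNC mESCs, 8 before, it became 5 with the stricter peaks (Kit and Zfpm1 of the 8, and Cd34, Klf1 and Ikzf1), 0 at equal covered length, 13 with all transcript TSSs and 6 to 11 without single libraries. The Tet2 interaction gave 3 genes higher, which became 2 others with the stricter peaks (Cd34 and Kit), 0 at equal covered length, 9 with all transcript TSSs, 6 with only the groups compared and 2 to 6 without single libraries, and 1 gene (Erg, -0.641) was lower at equal covered length. The Mbd6 interaction gave 2, which became 1 with the stricter peaks (Zfpm1, not among the 2), 0 at equal covered length, 0 with no filter and 0 to 2 without single libraries. Equal covered length moved the calls over all windows to 194 higher and 760 lower for Tet2 loss in HSPCs (1 and 964 before), to 1877 and 920 for the Tet2 interaction (5157 and 71) and to 647 and 207 for the Mbd6 interaction (1107 and 15). The cause of these changes was not tested. With all transcript TSSs more genes of the set passed the filter in the mESC and interaction fits, so those counts are not out of the same number tested.

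With the replicate number as a replicate block, the counts were 1 for Tet2 loss in HSPCs, 6 for Mbd6 knockdown in HSPCs, 9 for Tet2 loss in siNC mESCs, 5 for the Tet2 interaction and 2 for the Mbd6 interaction. The lists give no depth, so a gene at 0 may lie under the calling limit of that library, and libraries with fewer listed bases, above all those of KO shNC HSPCs, limit what can be seen. Covered length counts bases and not signal height.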
